A study of Mus musculus with 6 samples.

Results

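The genes described here encode the translation initiation factors of the cytoplasm and the 4 kinases that phosphorylate the initiation factor eIF2. They are the protein-coding genes of the deposited table whose name starts with Eif, without names starting with Eif4ebp or Eif2s3, and they come to 50 of 24935 genes, or of 16996 protein-coding genes. Their RNA was measured in the left hippocampus of C57BL/6 mice of both sexes at postnatal day 14 (P14). Pups were kept with their dams either in room air or in 85% oxygen at normal pressure from P2 to P14, with 3 mice and 1 library each in either group. The exposure is used as a model of the high oxygen that preterm infants receive, and the comparison asks how hippocampal gene expression differed between hyperoxia-exposed and air-exposed mice. The tissue was taken whole, so each library holds RNA of neurons, glia and vessels together, and fewer cells of a type cannot be told apart from less RNA per cell. The deposited columns carry the group and a number from 1 to 3, and these numbers name the libraries below without saying which animal each was. For Atf4, Eif4e and the oligodendrocyte precursor marker Cspg4, the paper reports mRNA changes opposite in direction to these columns. Every direction below therefore rests on the group names of the columns. The p-values measure the spread between these mice. The labels give neither the litter nor the sex of a mouse, so an effect of oxygen cannot be told apart from a difference of litter or sex.

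Initiation is the step at which a ribosome is brought to an mRNA and placed on its start codon. The cap-binding protein eIF4E, the scaffold eIF4G and the helicase eIF4A open the 5′ end of the mRNA, and eIF3 holds the small subunit with eIF1 and eIF1A, which keep it scanning. eIF2 carries the initiator tRNA, eIF5 prompts its GTP hydrolysis, eIF2B recharges it with GTP, and eIF5B joins the large subunit. The kinases HRI (Eif2ak1, haem shortage and oxidative stress), PKR (Eif2ak2, double-stranded RNA), PERK (Eif2ak3, unfolded protein in the endoplasmic reticulum) and GCN2 (Eif2ak4, amino acid shortage) phosphorylate eIF2, which slows most initiation and favours mRNAs such as that of the transcription factor Atf4. In neurons, local control of initiation is tied to synaptic plasticity and memory.

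The libraries held from 30384052 to 38746972 reads on genes, and the median member had a mean of 2366 normalized counts (read counts divided by 1 size factor per library). Hyperoxia library 2 stood apart from the other libraries on the second principal component, which held 19.5% of the variance, while the first, with 52.7%, parted the groups. Hippocampal markers were present in every library, and none of the cell type markers had a mean of 0. Markers of several cell types moved with the groups. The 6 oligodendrocyte markers summed to between 211426 and 321844 normalized counts in air and between 144727 and 177382 in hyperoxia, with 5 of the 6 lower, and the 5 endothelial markers summed to between 5273 and 5647 in air and between 6540.4 and 7622 in hyperoxia, with 3 of the 5 higher. Of 6 neuronal markers 3 were higher and 2 lower, of 6 astrocyte markers 2 were higher and 1 lower, of 4 precursor markers of oligodendrocytes 2 were higher, and of 6 microglial markers 1 was higher. The 5 hippocampal markers summed to between 23820 and 24248 in air and between 16095 and 21970.0 in hyperoxia, with 1 of the 5 lower. The 5 choroid plexus markers summed to 8005 in hyperoxia library 3 and to between 472 and 1359 in the others, with 1 of the 4 tested higher. The part of these shifts in the results below was not tested.

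Both directions occurred among the initiation genes, and in no complex were all genes called. Of the 50 genes, 49 reached the mean of 10 normalized counts needed for a test, and the exception was Eif4e1b, an oocyte form of the cap binder, at 0.942 to 3.40 normalized counts. Hyperoxia minus air was tested with limma on log2 of the normalized count plus 1, and a gene was called at a Benjamini-Hochberg adjusted p under 0.05 over all 17778 genes tested. 15 of the 49 (30.6%) were called, 6 higher and 9 lower in hyperoxia. Over all genes tested 30.5% were called, 14.9% higher and 15.6% lower, and over all genes with a mean of at least 500 normalized counts 38.4% were called, against 14 of the 46 members at that level. The initiation genes were therefore called about as often as the whole table, and at a mean of at least 500 less often than all genes (30.4% against 38.4%). Their median log2 fold change was -0.09 against -0.01 over all genes, with 30 of 49 below 0, and their median size of change was 0.18 against 0.25 over all genes. In 25 of the 49 the air and hyperoxia libraries did not overlap, 15 of them lower and 10 higher in hyperoxia, against 46.1% of all genes. At a mean of at least 500 it was 15 lower and 9 higher of 46 members, against 2606 lower and 2163 higher of 8967 genes. The call count moved with single libraries, and so did the share of all genes called. The members called were 4 without air library 1 (17.1% of all genes), 4 without air library 2 (17.4%), 9 without air library 3 (20.6%), 6 without hyperoxia library 1 (19.0%), 21 without hyperoxia library 2 (43.6%) and 13 without hyperoxia library 3 (28.0%). None of the 15 called genes changed sign in any of the 17 alternatives tried. The counts of single complexes below are to be read against the 30.5% of all genes called, or 38.4% at a mean of at least 500.

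**Figure D1:**
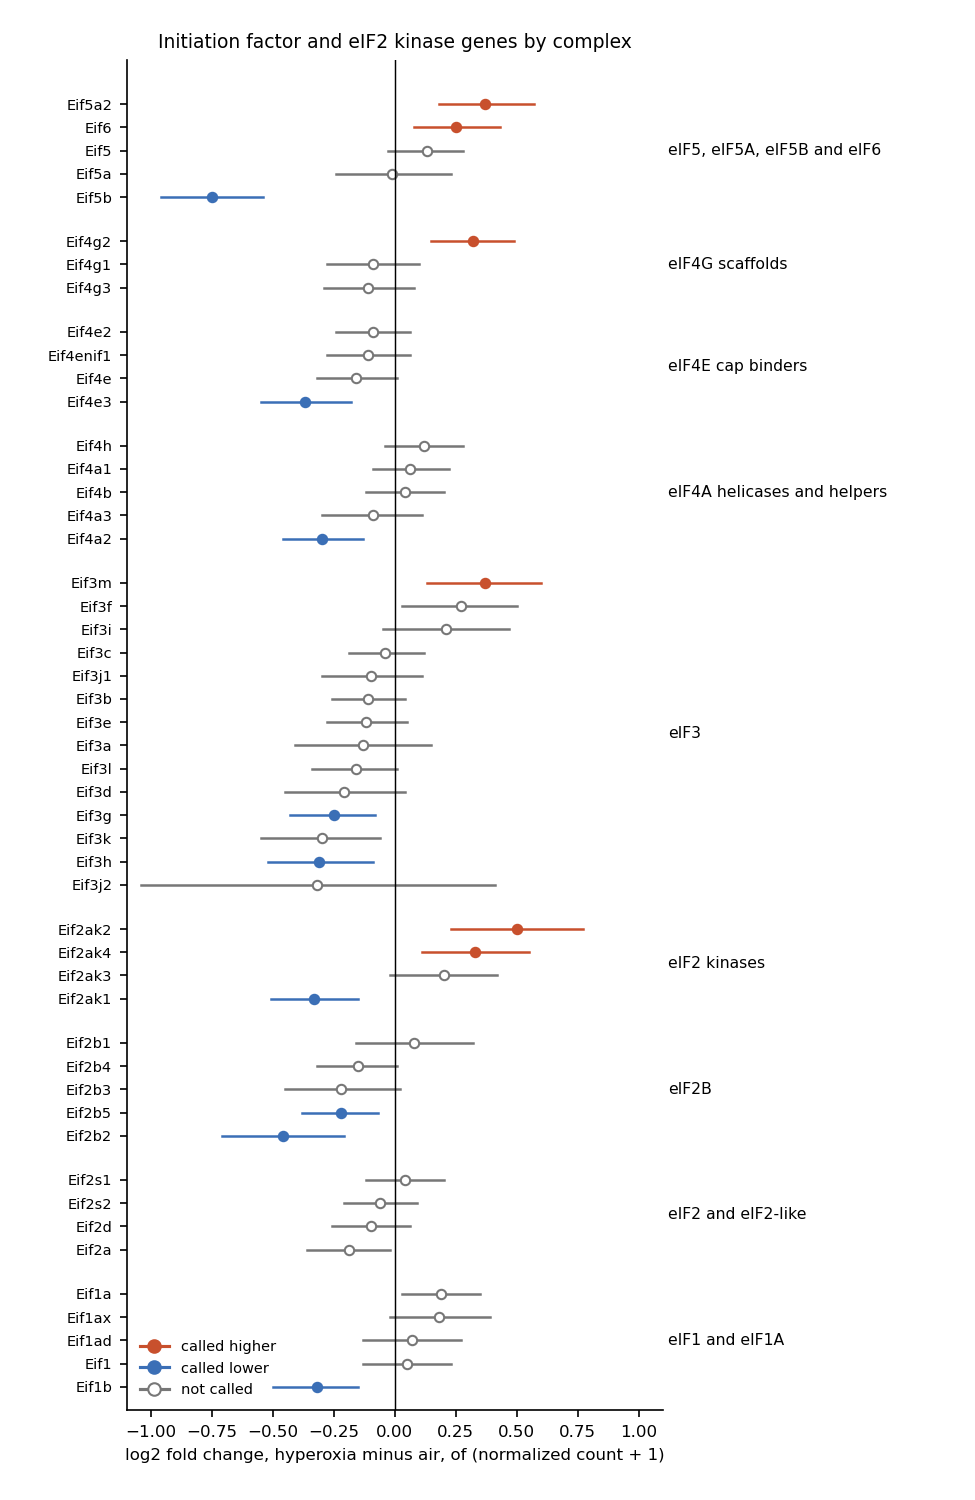
Log2 fold change (hyperoxia minus air, of the normalized count plus 1; horizontal axis) of the 49 tested genes, grouped by factor complex, with bars for the 95% confidence interval and filled points for called genes. Eif5b at -0.75 lies farthest to the left and the kinase gene Eif2ak2 at 0.50 farthest to the right, and the eIF3, eIF2B and kinase groups hold genes on both sides of 0.

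Eif5b showed the largest difference of all the initiation genes. It encodes the GTPase that joins the large ribosomal subunit at the start codon and lies at chr1:37998010-38055579, plus strand (GRCm38; positions of genes are those of GENCODE M21, found by gene identifier). Its level was 6401, 5817 and 5673 normalized counts in air libraries 1 to 3 and 3104.5, 3824 and 3761 in hyperoxia libraries 1 to 3. The highest hyperoxia library lay well below the lowest air library. Eif5b fell by 40.4%, from 5964 ± 386 normalized counts in air to 3563 ± 399 in hyperoxia (SD, n = 3 each) (log2 fold change -0.75 ± 0.09 (SE), adjusted p = 9.5e-04), and was the only initiation gene called in all 17 alternatives, with log2 fold changes from -0.80 to -0.65 when single libraries were left out. Its exons share 1643 bases with Rev1, a DNA repair polymerase gene read in the opposite direction, and no source used here states if reads were counted by strand. Rev1 stood at 478, 407 and 477 normalized counts in air libraries 1 to 3 and at 614, 461 and 754 in hyperoxia libraries 1 to 3 (log2 fold change 0.40 ± 0.16 (SE), adjusted p = 0.09). How reads of the stretch shared by Eif5b and Rev1 were assigned was not tested.

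Among the other genes for joining and late initiation, 2 were higher. Eif5a2 encodes the less abundant form of eIF5A, the hypusine-bearing factor that helps ribosomes past hard stretches. It stood at 930.4, 1040.0 and 1093 normalized counts in air libraries 1 to 3 and 1364, 1239.7 and 1363 in hyperoxia libraries 1 to 3 and rose by 29.6% (log2 fold change 0.37 ± 0.09 (SE), adjusted p = 0.011), with every hyperoxia library above every air library. The rise was not called without air library 1 (adjusted p = 0.055) and was 0.04 on the log2 scale (adjusted p = 0.70) after a correction that removed the dependence on transcript length and GC content in every library. Its abundant relative Eif5a stood at 10701, 11589 and 10585 normalized counts in air and 10160.2, 12884 and 9863 in hyperoxia, the hyperoxia libraries reaching both below and above the air libraries (log2 fold change -0.01 ± 0.10 (SE), adjusted p = 0.96, 95% interval -0.24 to 0.23). Eif6, whose protein keeps free large subunits from joining too early, stood at 760.0, 758 and 802 normalized counts in air and 889, 970.3 and 910.2 in hyperoxia and rose by 19.3% (log2 fold change 0.25 ± 0.08 (SE), adjusted p = 0.033). That call was lost in 6 alternatives, among them the removal of any library but hyperoxia library 2 (adjusted p from 0.05 to 0.12). Eif5, the GTPase activator of eIF2, missed the threshold (log2 fold change 0.13, adjusted p = 0.2) and passed it only without hyperoxia library 2 (log2 0.17, adjusted p = 0.032).

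The eIF2 kinases did not move together. Of the 4 genes, 2 were called higher, 1 lower, and 1 missed the threshold. Over all genes 30.5% were called, and a share of 4 genes is too coarse to be set against that. Eif2ak1 (HRI, chr5:143817788-143904251, plus strand) stood at 3040.0, 2797 and 2660.0 normalized counts in air libraries 1 to 3 and 2273, 2394.5 and 2109 in hyperoxia libraries 1 to 3. All hyperoxia libraries lay below all air libraries. The gene fell by 20.2% (log2 fold change -0.33 ± 0.08 (SE), adjusted p = 0.014), a call lost without air library 1 (adjusted p = 0.073) and without air library 2 (adjusted p = 0.055). Its exons share 487 bases with Aimp2, a gene of the tRNA synthetase complex on the other strand, which stood at 976, 785 and 780.2 normalized counts in air and at 488, 480.0 and 445 in hyperoxia (log2 fold change -0.84 ± 0.11 (SE), adjusted p = 9.6e-04). Both genes of that overlap were thus lower in hyperoxia, and how reads of the shared stretch were assigned was not tested.

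Eif2ak2 (PKR, chr17:78852564-78882573, minus strand), an interferon-induced gene, was the least abundant kinase gene, at 170.5, 153 and 156 normalized counts in air libraries 1 to 3 and 224.5, 206 and 251 in hyperoxia libraries 1 to 3. Its lowest hyperoxia library stood above its highest air library. It rose by 41.7% (log2 fold change 0.50 ± 0.12 (SE), adjusted p = 0.013) and was called in 16 of 17 alternatives, the exception being without air library 2 (adjusted p = 0.059). Eif2ak4 (GCN2, chr2:118388618-118475234, plus strand) stood at 774, 721.5 and 813 normalized counts in air libraries 1 to 3 and 967, 869.5 and 1072 in hyperoxia libraries 1 to 3, without overlap of the groups, and rose by 25.6% (log2 fold change 0.33 ± 0.10 (SE), adjusted p = 0.029). This call was less firm. It was kept in 10 of 17 alternatives and lost without any single library except hyperoxia library 2 (adjusted p from 0.054 to 0.12), and after the length and GC correction its log2 fold change was 0.15 (adjusted p = 0.15). Eif2ak3 (PERK, chr6:70844515-70905245, plus strand) stood at 654.5, 663.5 and 712.5 normalized counts in air libraries 1 to 3 and 865, 687 and 789 in hyperoxia libraries 1 to 3, and hyperoxia library 2 lay within the air range (log2 fold change 0.20 ± 0.10 (SE), adjusted p = 0.16, 95% interval -0.02 to 0.42). Without that library the log2 fold change was 0.29 (adjusted p = 0.015).

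The kinases' substrate did not differ detectably. Eif2s1, the eIF2 subunit that carries the phosphorylated serine, stood at 1345, 1285 and 1363 normalized counts in air libraries 1 to 3 and 1359.5, 1313 and 1437 in hyperoxia libraries 1 to 3, and the groups overlapped (log2 fold change 0.04 ± 0.07 (SE), adjusted p = 0.7, 95% interval -0.12 to 0.20). Eif2s2, the β subunit, gave a log2 fold change -0.06, adjusted p = 0.51. None of the 4 genes for eIF2 and eIF2-like factors was called, Eif2d and Eif2a (factors described as alternative carriers of initiator tRNA) included, with log2 fold changes from -0.19 to 0.04. Eif2a was called after the length and GC correction (log2 -0.30, adjusted p = 0.011) and without hyperoxia library 3 (log2 -0.24, adjusted p = 0.041).

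Of the 5 eIF2B genes, which encode the exchange factor blocked by phosphorylated eIF2, 2 were lower and none higher. That is 40.0%, against 30.5% of all genes, or 38.4% at a mean of at least 500 normalized counts. Eif2b2, the β subunit, stood at 1315, 1172 and 1142 normalized counts in air libraries 1 to 3 and 841.5, 1030.3 and 777 in hyperoxia libraries 1 to 3, with hyperoxia library 2 nearest to air. It fell by 27.4% (log2 fold change -0.46 ± 0.11 (SE), adjusted p = 0.013), a call that needed air library 1 (adjusted p = 0.069 without it) and hyperoxia library 1 (0.053 without it). Eif2b5, the catalytic ε subunit, stood at 2306, 2237 and 2112 normalized counts in air and 1854.5, 1926 and 1910.1 in hyperoxia and fell by 14.4% (log2 fold change -0.22 ± 0.07 (SE), adjusted p = 0.034), a call kept in 10 of 17 alternatives and lost without any single library except hyperoxia library 2 (adjusted p from 0.051 to 0.14). Eif2b3, Eif2b4 and Eif2b1 gave log2 fold changes of -0.22, -0.15 and 0.08 and were not called (adjusted p from 0.14 to 0.59). Loss of eIF2B function in people causes a disease of white matter, and the oligodendrocyte marker sums given above were also lower in hyperoxia. Their part in the eIF2B values was not tested.

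**Figure D2:**
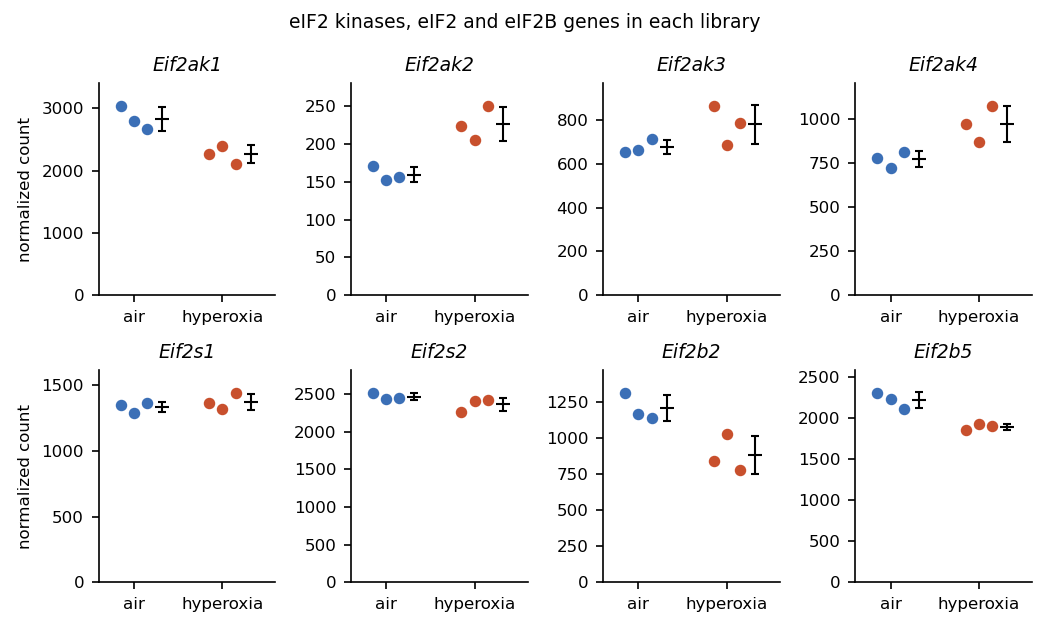
Normalized counts (vertical axis, from 0) of the 4 eIF2 kinase genes, 2 eIF2 subunit genes and 2 eIF2B genes in each of the 3 air (blue) and 3 hyperoxia (orange) libraries, with the mean and SD as a bar beside them. Eif2ak2 and Eif2ak4 sit higher in hyperoxia and Eif2ak1, Eif2b2 and Eif2b5 lower, while the Eif2s1 points overlap.

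eIF3, the largest initiation factor, has 14 genes in the table. Of these, 1 was higher and 2 were lower (21.4% called, against 30.5% of all genes). Of the 14 log2 fold changes 11 were below 0, with a median of -0.12 and a range from -0.32 to 0.37. Over all 17778 genes tested 9006 were below 0. Eif3m, a subunit with a PCI domain, stood at 948, 1208 and 1017 normalized counts in air libraries 1 to 3 and 1293, 1489 and 1296 in hyperoxia libraries 1 to 3 and rose by 28.9% (log2 fold change 0.37 ± 0.10 (SE), adjusted p = 0.026), the call being lost without air library 1 (adjusted p = 0.12), air library 3 (0.09) or hyperoxia library 1 (0.054). Eif3h, a subunit outside the core of the complex, stood at 5379, 5129.7 and 4597 normalized counts in air libraries 1 to 3 and 3884, 4599 and 3747 in hyperoxia libraries 1 to 3. Here the groups overlapped, since hyperoxia library 2 lay level with air library 3. Eif3h fell by 19.2% (log2 fold change -0.31 ± 0.10 (SE), adjusted p = 0.036), a call lost without air library 1 (adjusted p = 0.15), air library 2 (0.12), hyperoxia library 1 (0.12) or hyperoxia library 3 (0.083).

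Eif3g, an RNA-binding subunit, stood at 1962, 1982 and 1949 normalized counts in air and 1502, 1715 and 1743 in hyperoxia and fell by 16.0% (log2 fold change -0.25 ± 0.08 (SE), adjusted p = 0.036). All hyperoxia libraries were below all air libraries, but after the length and GC correction the log2 fold change was -0.11 (adjusted p = 0.31), and it was not called without any 1 of the air libraries (adjusted p from 0.097 to 0.12) or hyperoxia library 1 (0.14). The remaining 11 were not called, and hyperoxia library 2 differed from its group in several. Eif3k stood at 2883, 2744 and 2627 normalized counts in air and 2109, 2664 and 1967 in hyperoxia (log2 fold change -0.30, adjusted p = 0.061) and Eif3f, a subunit that binds the kinase mTOR, at 3368, 3373 and 3459.8 normalized counts in air and 3684, 4898 and 3786.5 in hyperoxia (log2 fold change 0.27, adjusted p = 0.082). In Eif3k that library was the one nearest to air, and in Eif3f the one farthest from it. Without hyperoxia library 2, 6 of the 14 were called, in a fit that called 43.6% of all genes. Among the 6 were Eif3k at -0.43 (adjusted p = 5.5e-04), Eif3d at -0.33 (0.0046) and Eif3l at -0.23 (0.011) on the log2 scale. Eif3f was not called in that fit. Eif3a, Eif3b and Eif3c of the core gave log2 fold changes of -0.13, -0.11 and -0.04 (adjusted p from 0.23 to 0.72). For Eif3j the table has 2 genes, Eif3j1 at 970.0, 1031 and 1016 normalized counts in air and 960.0, 838 and 1028 in hyperoxia and the rare copy Eif3j2 at 16.0, 19.3 and 16.4 normalized counts in air and 17.7, 14.7 and 9.65 in hyperoxia. Reads of these closely related copies may be split between them, and neither was called (log2 fold change -0.10, adjusted p = 0.43 and log2 fold change -0.32, adjusted p = 0.48).

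In the group of scanning factors, Eif1b was lower and its close relative Eif1 was not. Eif1b stood at 3920.5, 4097 and 3706 normalized counts in air libraries 1 to 3 and 2870.2, 3180.2 and 3337 in hyperoxia libraries 1 to 3, without overlap. It fell from 3908 ± 196 normalized counts in air to 3129 ± 237 in hyperoxia (SD, n = 3 each) (log2 fold change -0.32 ± 0.08 (SE), adjusted p = 0.014), a call not reached without air library 1 (adjusted p = 0.059), air library 2 (0.074) or hyperoxia library 1 (0.061). Eif1 stood at 3711, 4095 and 3912.5 normalized counts in air and 3789.5, 4448 and 3928 in hyperoxia (log2 fold change 0.05 ± 0.08 (SE), adjusted p = 0.65, 95% interval -0.13 to 0.23), with the groups overlapping and hyperoxia library 2 above every air library. Of the eIF1A genes, Eif1a stood at 1021, 1067.5 and 1101 normalized counts in air and 1222, 1234 and 1184 in hyperoxia, without overlap but short of the threshold (log2 fold change 0.19, adjusted p = 0.071). Its X-linked relative Eif1ax stood at 5086, 5041 and 4975 normalized counts in air and 6042, 4961 and 6225 in hyperoxia, where hyperoxia library 2 was the lowest of all 6 (log2 fold change 0.18, adjusted p = 0.15), and without that library the log2 fold change was 0.28 (adjusted p = 0.0021). Eif1ad gave a log2 fold change 0.07, adjusted p = 0.58.

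In the cap complex, 1 scaffold gene was higher and 1 helicase and 1 cap-binder gene were lower. Eif4g2 (chr7:111067750-111083030, minus strand) encodes DAP5, a scaffold that lacks the eIF4E-binding site and serves initiation without the cap binder. It stood at 19720.2, 18239 and 19851 normalized counts in air libraries 1 to 3 and 24113.5, 23059 and 24995 in hyperoxia libraries 1 to 3. Each hyperoxia library exceeded each air library, and Eif4g2 rose by 24.9% (log2 fold change 0.32 ± 0.07 (SE), adjusted p = 0.011), a call kept in 16 of 17 alternatives and lost without air library 2 (adjusted p = 0.071). The scaffolds that do bind eIF4E were not called. Eif4g1 stood at 13073, 11798 and 12424 normalized counts in air and 11753, 10569 and 12755 in hyperoxia (log2 fold change -0.09, adjusted p = 0.44), and Eif4g3 stood at 12194, 11280.0 and 11681 normalized counts in air and 11308.5, 9824 and 11559 in hyperoxia (log2 fold change -0.11, adjusted p = 0.34). In both, hyperoxia library 2 was the lowest of the 6.

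Eif4a2 (chr16:23107444-23114136, plus strand) encodes the form of the helicase eIF4A that is abundant in brain. It stood at 19166.5, 20556 and 19196 normalized counts in air libraries 1 to 3 and 16118, 15072 and 16768.5 in hyperoxia libraries 1 to 3, without overlap, and fell by 18.6% (log2 fold change -0.30 ± 0.07 (SE), adjusted p = 0.015). It was not called under quantile normalization (log2 -0.19, adjusted p = 0.068), nor without any 1 of the air libraries (adjusted p from 0.05 to 0.086) or hyperoxia library 1 (0.051). Its relative Eif4a1 stood at 8007, 8298.5 and 8042 normalized counts in air and 8093, 8387 and 8981 in hyperoxia, with the groups overlapping (log2 fold change 0.06 ± 0.07 (SE), adjusted p = 0.51, 95% interval -0.09 to 0.22). Eif4a3 of the exon junction complex and the helicase helpers Eif4b and Eif4h gave log2 fold changes of -0.09, 0.04 and 0.12, and none was called.

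All 4 tested genes of the cap-binder group had log2 fold changes below 0, but 1 was called. Eif4e3, a cap binder that acts unlike eIF4E, stood at 616, 655 and 631 normalized counts in air libraries 1 to 3 and 469, 515 and 490.3 in hyperoxia libraries 1 to 3. The groups were well apart, and the gene fell by 22.5% (log2 fold change -0.37 ± 0.08 (SE), adjusted p = 0.01), a call lost without air library 2 (adjusted p = 0.056). Eif4e, the main cap binder, stood at 3576, 3283 and 3120.0 normalized counts in air libraries 1 to 3 and 2938, 3044 and 2953 in hyperoxia libraries 1 to 3. Its hyperoxia libraries were all below its air libraries by a small step, the adjusted p was 0.13 (log2 fold change -0.16 ± 0.07 (SE), 95% interval -0.32 to 0.01), and no alternative called it. The paper reports Eif4e mRNA as increased with hyperoxia, the other direction, and the eIF4E protein as decreased. Eif4e2, a cap binder that represses translation, stood at 2501, 2424 and 2400.3 normalized counts in air and 2282, 2379 and 2206.5 in hyperoxia (log2 fold change -0.09, adjusted p = 0.32), and Eif4enif1, which carries eIF4E into the nucleus, gave a log2 fold change -0.11, adjusted p = 0.3.

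**Figure D3:**
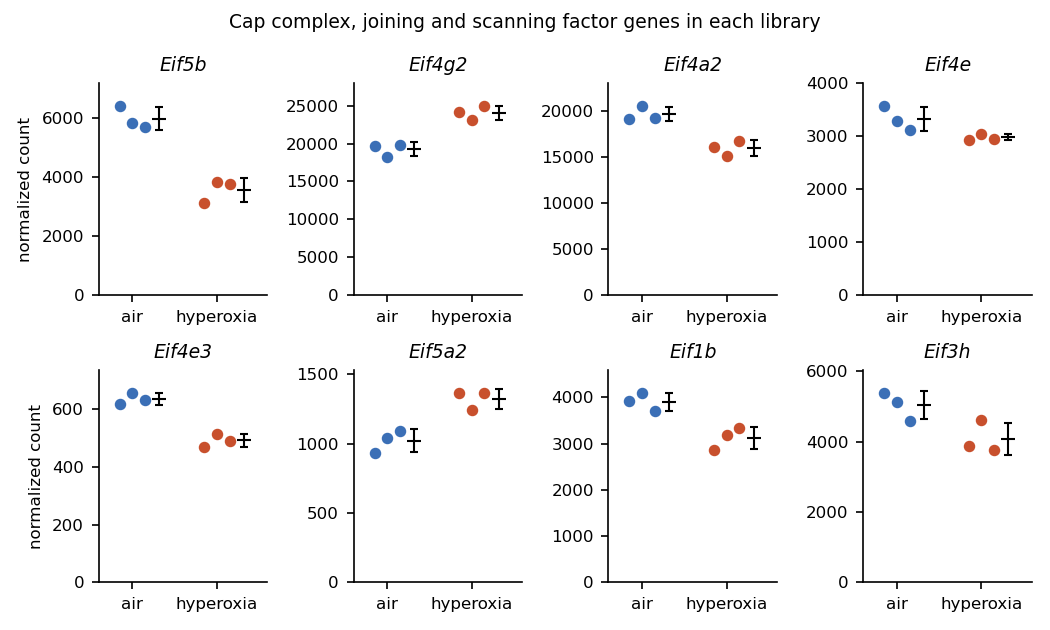
Normalized counts (vertical axis, from 0) of 8 genes of joining, cap binding and scanning in each of the 3 air (blue) and 3 hyperoxia (orange) libraries, with the mean and SD as a bar beside them. The hyperoxia points of Eif5b lie between 3104.5 and 3824, below the air points between 5673 and 6401, whereas those of Eif3h overlap with air.

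The ratio of related genes inside a library does not depend on how the library was scaled, and 9 such pairs were compared. Eif4a2 over Eif4a1 had log2 ratios of 1.26, 1.31 and 1.26 in air libraries 1 to 3 and of 0.99, 0.85 and 0.90 in hyperoxia libraries 1 to 3, a difference of -0.36. Eif1b over Eif1 had 0.08, 0.00 and -0.08 in air and -0.40, -0.48 and -0.24 in hyperoxia, a difference of -0.37. Eif4g2 over Eif4g1 had 0.59, 0.63 and 0.68 in air and 1.04, 1.13 and 0.97 in hyperoxia, a difference of 0.41. These pairs and Eif4e3 over Eif4e (difference -0.21) did not overlap between the groups, and each had the smallest p that the exact two-sided permutation test of 3 against 3 allows, 0.1 (adjusted over the 9 pairs, 0.225). This test cannot place a pair under 0.05 with 3 libraries a group. Each of these pairs holds a gene that was itself called, so the ratios are not separate evidence. Among single genes 46.1% of all those tested did not overlap, and ratios of other genes were not computed. The pairs were chosen with earlier results of these data known. Eif5a2 over Eif5a overlapped, because hyperoxia library 2 (-3.38) lay within the air range of -3.52 to -3.27 while the other hyperoxia libraries had -2.90 and -2.85 (difference 0.38, exact p = 0.2, adjusted p = 0.3). Eif4e2 over Eif4e, Eif4g3 over Eif4g1, Eif1ax over Eif1a and Eif3j2 over Eif3j1 differed by 0.06, -0.02, -0.01 and -0.22, all with overlap (exact p from 0.2 to 0.9, adjusted p from 0.3 to 0.9).

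**Figure D4:**
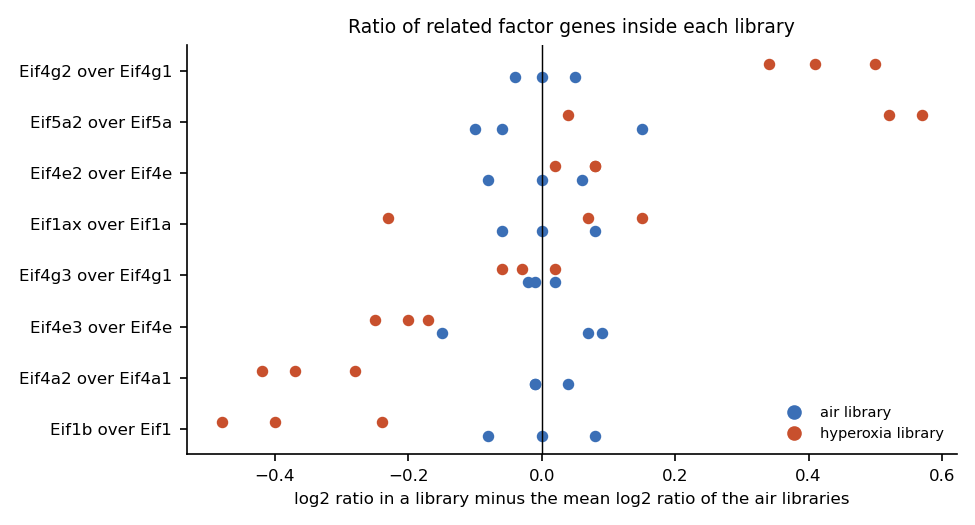
Log2 ratio of 8 of the 9 related gene pairs in each library, drawn as the difference from the mean of the air libraries (horizontal axis); the rare copy Eif3j2 is not drawn. The hyperoxia points (orange) of Eif4g2 over Eif4g1 lie to the right of all air points (blue) and those of Eif4a2 over Eif4a1, Eif1b over Eif1 and Eif4e3 over Eif4e to the left.

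Promoter sequences are shown for genes whose levels moved apart. The 100 bases before the RefSeq start (GRCm38.p6) of 40 of the 50 genes were found, and the following are printed 5′ to 3′ on the strand of the gene. They cover both genes of 2 pairs whose ratios did not overlap between the groups, Eif5b, and the kinase genes Eif2ak1 and Eif2ak2. Capitals mark matches, on either strand, to 6 motifs searched: the CCAAT box, the GC box GGGCGG, the ETS factor core CCGGAA, the cyclic AMP element TGACGTCA, the E box CACGTG and the TATA box TATAAA. A GC box on the other strand reads CCGCCC, and no motif contains another.
Eif4a1, chr11:69672424-69672523, minus strand: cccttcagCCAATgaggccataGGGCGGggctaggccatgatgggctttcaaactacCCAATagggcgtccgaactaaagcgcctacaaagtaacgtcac
Eif4a2, chr16:23107368-23107467, plus strand: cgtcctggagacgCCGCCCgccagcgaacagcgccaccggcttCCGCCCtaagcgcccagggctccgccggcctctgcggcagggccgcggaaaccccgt
Eif1, chr11:100319849-100319948, plus strand: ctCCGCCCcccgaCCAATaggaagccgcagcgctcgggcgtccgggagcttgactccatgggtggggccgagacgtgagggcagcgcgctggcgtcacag
Eif1b, chr9:120492506-120492605, plus strand: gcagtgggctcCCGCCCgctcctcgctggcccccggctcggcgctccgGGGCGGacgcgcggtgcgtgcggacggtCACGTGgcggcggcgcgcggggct
Eif5b, chr1:37997910-37998009, plus strand: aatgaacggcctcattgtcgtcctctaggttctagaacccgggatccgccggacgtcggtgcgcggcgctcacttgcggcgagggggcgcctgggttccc
Eif2ak1, chr5:143817692-143817791, plus strand: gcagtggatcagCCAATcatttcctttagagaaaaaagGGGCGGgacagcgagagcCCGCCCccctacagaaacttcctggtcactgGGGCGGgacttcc
Eif2ak2, chr17:78882573-78882672, minus strand: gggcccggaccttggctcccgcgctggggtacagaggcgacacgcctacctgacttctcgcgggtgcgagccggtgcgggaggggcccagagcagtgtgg

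Within these windows Eif4a1 and Eif1 each held a CCAAT match beside a GC box, whereas Eif4a2 and Eif1b held GC boxes and no CCAAT. GENCODE M21 starts the Eif1b gene at 120492232, so its window lies wholly inside the gene as annotated there. The windows of Eif1 and Eif4a2 reach into their genes, which start at 100319885 and 23107444. Bases before those GENCODE starts were not compared. Eif2ak1 held 1 CCAAT and 3 GC boxes, and neither Eif5b nor Eif2ak2 held a match. CCAAT was also found for Eif2b2, which was lower, and for both Eif5a and the higher Eif5a2, whose windows are not printed. The motif thus did not follow the direction of change. Across the 40 genes, GGGCGG was found in 55.0%, against 27.3% of 27025 genes in the RefSeq table, CCGGAA in 27.5% against 8.4%, CACGTG in 17.5% against 3.7% and CCAAT in 25.0% against 21.6%. TATAAA was found in 2.5% against 6.6% and TGACGTCA in none of the 40 against 1.4%. The windows of these genes had a median GC content of 66.5%, against 55.0% over all windows of the table. The 27025 genes were not filtered by expression or gene type, so their shares are not matched to the 40 genes. A match is a description of the letters and shows no binding.

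Levels between genes were set side by side per length, in TPM (reads per base of summed exon length, scaled to the same total in each library), within the air group. Eif5a was the highest at 418 ± 19.4 TPM (SD, n = 3), followed by Eif4a2 at 334 ± 13.2, Eif1b at 315 ± 12.3, Eif3h at 283 ± 17.8 and Eif4g2 at 172 ± 9.44. The ranges of Eif4a2 and Eif1b overlapped, though Eif4a2 was the higher in each air library. Eif4g2, Eif4a1 (170 ± 4.03 TPM) and Eif1 (169 ± 9.43 TPM) lay within their spread of each other. Among the kinases the order in air was Eif2ak1 at 45.3 ± 2.39 TPM, Eif2ak3 at 10.2 ± 0.649, Eif2ak4 at 9.37 ± 0.680 and Eif2ak2 at 2.83 ± 0.145. Eif2ak3 was above Eif2ak4 in each air library (9.72, 9.94 and 10.9 against 9.29, 8.73 and 10.1 TPM), though their ranges overlapped. Eif2ak1 was thus the main eIF2 kinase transcript of this tissue in air, and in hyperoxia it remained first at 41.3 ± 1.61 TPM. Per length, Eif4a2 made up 66.0%, 66.8% and 66.0% of the reads of Eif4a1 and Eif4a2 together in air libraries 1 to 3 and 61.8%, 59.3% and 60.3% in hyperoxia libraries 1 to 3. Eif1b made up 66.3%, 65.1% and 63.9% of Eif1 and Eif1b together in air and 58.6%, 57.1% and 61.3% in hyperoxia. TPM was not used to compare the groups, since its scale moves with the levels of all other genes.

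Genes that act around the initiation factors also went both ways, and the counts of their lists are to be read against the 30.5% of all genes called, or 38.4% at a mean of at least 500 normalized counts. Of 15 tested genes of eIF2 phosphorylation control and the stress response that follows it, 7 (46.7%) were called, 3 higher and 4 lower. Slc7a11, the cystine transporter, stood at 1055, 1077 and 1162 normalized counts in air and 1992, 1539 and 1862 in hyperoxia (log2 fold change 0.70, adjusted p = 0.0016). Lower were Sesn2, a sensor of leucine (963, 922 and 955 normalized counts in air and 670.0, 775.5 and 650.5 in hyperoxia, log2 fold change -0.44, adjusted p = 0.006), the transcription factor Atf5 (log2 fold change -0.42, adjusted p = 0.011) and asparagine synthetase Asns (log2 fold change -0.35, adjusted p = 0.018). The transcription factor Atf4 itself was also lower, at 4623, 4212 and 4185 normalized counts in air and 3359.9, 3982 and 3166 in hyperoxia, without overlap (log2 fold change -0.31, adjusted p = 0.031, kept in 11 of 17 alternatives), and lost its call without any library but hyperoxia library 2 (adjusted p from 0.069 to 0.13). The paper reports Atf4 mRNA as increased with hyperoxia, opposite to the direction here, and the reason was not tested. Without air library 1 the adjusted p was 0.057 for Atf5 and 0.081 for Asns, and without air library 2 it was 0.055 for Asns. The higher genes also held Ppp1r15b, the constitutive partner of the eIF2 phosphatase (log2 fold change 0.28, adjusted p = 0.021), and Impact, an inhibitor of GCN2 activation (log2 fold change 0.23, adjusted p = 0.039). Ppp1r15b was at 0.07 on the log2 scale (adjusted p = 0.41) after the length and GC correction and was not called without air library 1 (adjusted p = 0.098), air library 2 (0.067) or hyperoxia library 1 (0.065). Impact was not called without any library but hyperoxia library 2 (adjusted p from 0.063 to 0.15). The median log2 fold change of the list was 0.08. Slc7a11 and Sesn2 were called in all 17 alternatives, while the list's count was 2 without air library 1, 3 without air library 2 and 4 without hyperoxia library 1, fits in which fewer of all genes were called too.

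Of 21 regulators of the cap complex and of ribosome recycling, 9 (42.9%) were called, 3 higher and 6 lower. The share was 30.5% over all genes and 38.4% at a mean of at least 500 normalized counts. The cytoplasmic polyadenylation element binding proteins, which control translation of dendritic mRNAs, were split. Cpeb2 stood at 1142, 1119 and 1344 normalized counts in air and 2395, 1655 and 2300.1 in hyperoxia (log2 fold change 0.80, adjusted p = 0.003) and Cpeb3 at 1158, 1091 and 1314 normalized counts in air and 1900.5, 1377 and 1833 in hyperoxia (log2 fold change 0.51, adjusted p = 0.015), both higher. Cpeb1 stood at 2013.5, 2027 and 2157 normalized counts in air and 1314, 1299.7 and 1567.5 in hyperoxia, lower (log2 fold change -0.57, adjusted p = 0.0019), and Cpeb4 was not called (log2 fold change -0.02, adjusted p = 0.94), except after the length and GC correction, where it was lower (log2 -0.35, adjusted p = 0.0055). Cpeb3 was not called without air library 1 (adjusted p = 0.064), air library 2 (0.07) or hyperoxia library 1 (0.063). Dohh, the enzyme that completes hypusine on eIF5A, was lower (2608, 2566 and 2552 normalized counts in air and 1958, 2165 and 1813 in hyperoxia, log2 fold change -0.38, adjusted p = 0.0067), and the first enzyme of that step, Dhps, was not called (log2 fold change 0.04, adjusted p = 0.77). Cpeb1, Cpeb2 and Dohh were called in all 17 alternatives, Dohh with a log2 fold change of -0.23 after the length and GC correction. Under that correction 15 of the 21 genes and 32.9% of all genes were called. The list's count was 4 without air library 1, air library 2 or hyperoxia library 1, where 17.1%, 17.4% and 19.0% of all genes were called.

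Of 14 elongation and termination factors, 5 (35.7%) were called, 3 higher and 2 lower, a share near that of all genes (30.5%). Hbs1l, which rescues stalled ribosomes, stood at 1322, 1407 and 1343 normalized counts in air and 1771, 1875 and 1821 in hyperoxia (log2 fold change 0.42, adjusted p = 0.0024), and Eef1b2, an exchange factor of eEF1A, was also higher (log2 fold change 0.39, adjusted p = 0.019), though not called without air library 1 (adjusted p = 0.091) or air library 3 (0.063). Lower were Gspt2, a termination GTPase (1362, 1422 and 1327.5 normalized counts in air and 989, 959 and 989 in hyperoxia, log2 fold change -0.48, adjusted p = 0.0016), and Eef1a2, the eEF1A form of mature neurons (36707.5, 32456 and 33786 normalized counts in air and 25827, 27737 and 23545 in hyperoxia, log2 fold change -0.42, adjusted p = 0.0075), whereas the widespread form Eef1a1 was not called (log2 fold change -0.03, adjusted p = 0.87). Under quantile normalization this was the other way round, with Eef1a2 at -0.22 (adjusted p = 0.079) and Eef1a1 called at 0.25 (adjusted p = 0.042) on the log2 scale. The list's count was 3 without air library 1 or air library 3 and 8 without hyperoxia library 2. Of 9 mitochondrial translation factors, 3 (33.3%) were called, all lower, which is also near the share of all genes. They were the initiation factors Mtif3 (log2 fold change -0.35, adjusted p = 0.035) and Mtif2 (log2 fold change -0.29, adjusted p = 0.016) and the elongation factor Tufm (log2 fold change -0.31, adjusted p = 0.038). These mitochondrial calls went to 0 without air library 2, without air library 3 or without hyperoxia library 1, and to 1 after the length and GC correction, which left Mtif2 and put Mtif3 at -0.26 (adjusted p = 0.079) and Tufm at -0.13 (adjusted p = 0.14) on the log2 scale. Tufm was also not called under quantile normalization (adjusted p = 0.053) or without any library but hyperoxia library 2 (adjusted p from 0.073 to 0.15).

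**Figure D5:**
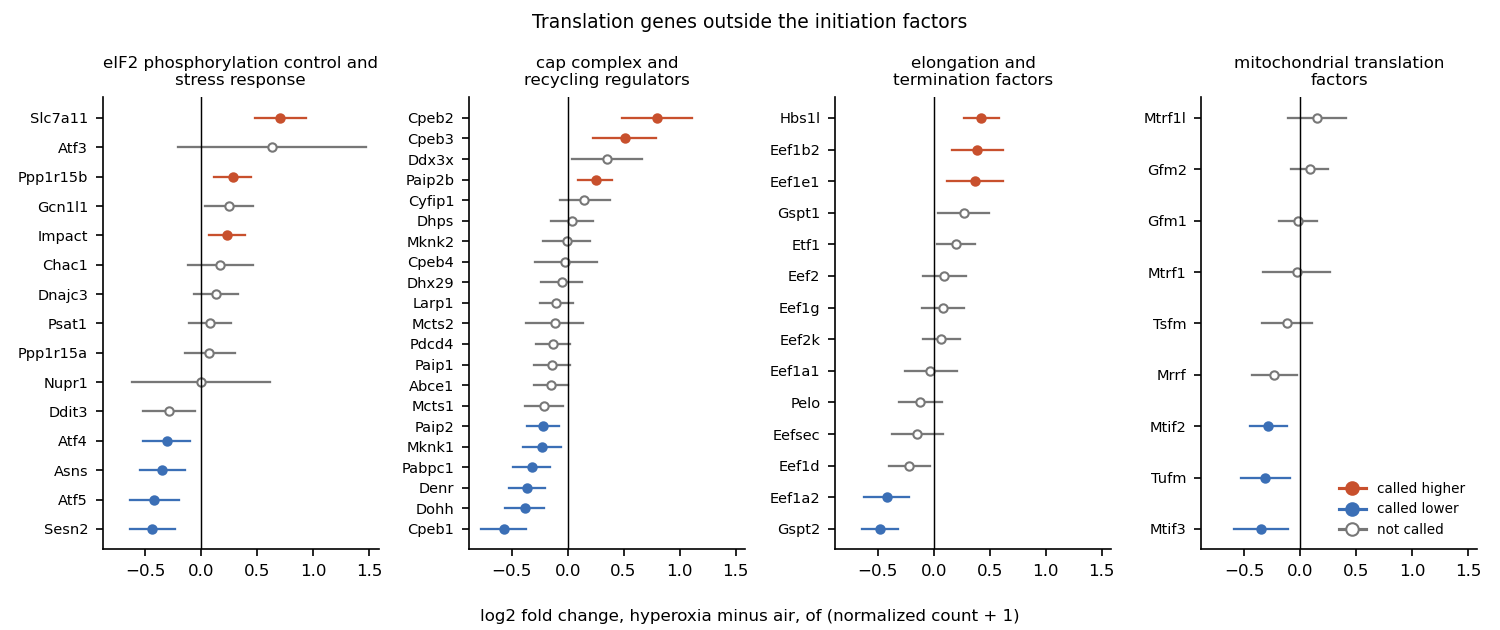
Log2 fold change (hyperoxia minus air, of the normalized count plus 1; horizontal axis) with its 95% confidence interval for the tested genes of 4 lists of translation genes outside the initiation factors, filled where called. The Cpeb genes lie at both ends of their list, from Cpeb1 at -0.57 to Cpeb2 at 0.80, and the 3 called of 9 mitochondrial factors lie to the left of 0.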

How the data were processed

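Left hippocampal RNA of 6 mice at P14 (3 in air, 3 in 85% oxygen) was sequenced as strand-specific polyA libraries. The authors deposited 1 signal per gene and library, named as a DESeq2-normalized read count. The submitters' processing notes list FastQC, STAR 2.5.3a, HTSeq and DESeq2 without roles, and the genome build, annotation and strand setting of the counting are unstated in the sources used here. A table of the authors' own comparison (fold changes and p-values) was not used. Directions given here follow the group names of the deposited columns. The paper reports Atf4 and Eif4e mRNA as increased with hyperoxia, where these columns gave lower values (log2 fold changes -0.31 and, not called, -0.16). It gives mRNA of the precursor marker Cspg4 as decreased, where they gave higher values (0.41). For each of these genes the paper lists a fold change of similar size and opposite sign. Prox1 also had opposite signs (-0.42 here), without a call here or a difference in the paper. An exchange of group names in either source would reverse every direction given here. The reason for these opposite directions was not tested. Every value (100%) lay within 0.01 of a whole number of reads times 1 factor per library.

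In limma 3.58.1 (R 4.3.3), log2(value + 1) of 17778 genes whose mean reached 10 was compared between the groups with a trended variance, two-sided and adjusted by Benjamini-Hochberg. Such log2 fold changes understate the change of low genes. Alternatives were a pseudocount of 0.5 or 5, leaving out the filter or raising it to 50, quantile or TMM scaling, limma without the trend, edgeR 4.0.16 and DESeq2 1.42.0 on recovered reads, a length and GC correction (mgcv 1.9.3), a replicate block, and each library left out. The fits were tested on simulated data. Replicates differed beyond sampling noise (lowest chi-square per gene 6.51), and each counted as 1 sample.

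Members, complexes, lists and pairs were chosen with earlier results of these data known. Genes named with full statistics were the 14 called members with the largest change, the kinases, Eif2s1, Eif4e and both genes of each pair. Other members were named where their complex needed it, and up to 4 called genes per other list by size of change, with Atf4, Ppp1r15b, Impact, Cpeb4, Dhps and Eef1a1 added after their values were seen. Gene positions, exon lengths and GC content came from GENCODE M21 on GRCm38, which held all 50 genes, and 16 of these overlap another gene of the table.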

Additional observations from a re-analysis of the deposited data

How the results depend on the processing

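With 3 mice a group, adjusted p-values near 0.05 moved with single libraries. Depth limited Eif4e1b, which was not tested, and Eif3j2, whose 95% interval ran from -1.04 to 0.41. The 15 called genes were the same 15 under both pseudocounts, both filters, TMM scaling and edgeR, and were among the 16 called by DESeq2. Limma without the trend called 9 members (3 higher), with 1 of eIF2B and 0 of eIF3, and 3 stress response, 5 cap complex, 3 elongation and 1 mitochondrial genes. Of all 17778 genes it called 4224, against 5425 with the trend. Under quantile normalization 13 were called and 0 of the eIF4A group, with 5374 of the 17778 genes called. The length and GC correction called 15 members, 11 of them shared with the 15, with 1 gene of eIF2, 1 of eIF2B, 5 of eIF3, 15 of the cap complex list and 1 of the mitochondrial list. Over all genes that correction called 32.9%. The cause of these differences was not tested. Genes near 0 changed sign: Eif5a was at 0.05 (quantile), 0.0042 (edgeR), 0.01 (DESeq2) and 0.11 (length and GC), where Eif2s1 was at -0.04 and Eif4g1 at 0.03. With single libraries left out Eif5a ranged from -0.13 to 0.06 (0.03 without air library 2, 0.04 without hyperoxia library 1) and Eif1 from -0.02 to 0.10. The log2 ratio differences then ranged from -0.09 to 0.11 for Eif1ax over Eif1a (0.03 without air library 1), from -0.04 to 0.00 for Eif4g3 over Eif4g1 and from -0.38 to 0.08 for Eif3j2 over Eif3j1.

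With single libraries left out, between 4 and 21 members were called, 2 to 9 higher and 2 to 12 lower. The share of all genes called ran from 17.1% to 43.6% in these fits. By group the called genes ranged from 0 to 2 (eIF1 and eIF1A), 0 to 1 (eIF2), 0 to 2 (eIF2B), 0 to 4 (kinases), 0 to 6 (eIF3), 0 to 1 (eIF4A), 0 to 1 (eIF4E), 0 to 1 (eIF4G) and 1 to 4 (eIF5 to eIF6), and in the other lists from 2 to 9 (stress response), 4 to 11 (cap complex), 3 to 8 (elongation) and 0 to 4 (mitochondrial).

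Deviations of same-numbered libraries from their group means correlated at -0.079, 0.129 and 0.095, and not every library correlated best with its own number. With 3 libraries a group these values cannot decide if the column numbers pair the libraries. A fit with the number as a replicate block called 17 members and 5 eIF3 genes. It also called more of all 17778 genes, 6211 against 5425 without the block.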
